A study of Mus musculus with 6 samples.

Results

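The transcription factors that set intestinal and enterocyte identity were followed in RNA-seq of duodenal epithelium. They were chosen by symbol and number 9 of the 22611 genes in the deposited table, namely *Cdx1*, *Cdx2*, *Hnf4a*, *Hnf4g*, *Gata4*, *Gata6*, *Klf4*, *Klf5* and *Pdx1*. The libraries came from 3 WT mice and 3 *Esrra*-/- mice (labelled ESRRAKO), 1 library each. All of these mice were littermates on a high-fat diet that lasted several weeks, and the *Esrra*-/- mice lacked the gene in every tissue from the germline on. Both sexes were used, the ages of these animals are not given in the sources used here, and the same applies to whether they carried the *Villin-CreERT2* transgene of the breeding colony. Epithelium was released with EDTA from the first part of the small intestine, and genes of both villus and crypt cells were present in each library. In such bulk samples fewer cells of a type and less RNA per cell cannot be told apart.

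CDX1 and CDX2 are homeodomain proteins that specify intestine against stomach, and CDX2 is needed to keep that identity in the adult. HNF4A and HNF4G are nuclear receptors that act redundantly on the brush-border and lipid transport genes of enterocytes. GATA4 and GATA6 are zinc finger factors, of which GATA4, absent from the ileum, separates proximal from distal small intestine, while PDX1 marks the duodenum and the pancreas. KLF5 is a factor of dividing crypt cells, and KLF4 is one of postmitotic epithelial and goblet cells. ESRRA, the receptor removed here, belongs to the same superfamily as HNF4A and HNF4G. The comparison asks whether the levels of these factors differed when ESRRA was absent.

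In mm9 coordinates *Hnf4a* lies at chr2:163332544-163398646 on the plus strand, *Hnf4g* at chr3:3508030-3659775 on the plus strand and *Klf4* at chr4:55540013-55545347 on the minus strand. *Pdx1* (chr5:148081535-148089584, plus strand) and *Cdx2* (chr5:148112381-148118846, minus strand) are ParaHox genes, and the annotated ends of the pair are 22797 bases apart. *Gata4* is on chr14:63817759-63890529 (minus strand) and *Klf5* on chr14:99697910-99712624 (plus strand). Expression was estimated per gene by matching short words of reads to transcripts, so shared sequence between paralogs could split reads. Among words of 31 bases in the annotated coding transcripts, 0 were shared between any of the 9 genes. *Hnf4g* shared the largest part of its words with other genes, 26 of 4319 (0.602%), followed by *Pdx1* with 18 of 4288 (0.42%).

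RefSeq sequences before the transcription start, in build GRCm38.p6, were held for 5 start sites of 4 of the genes, and the 250 bases upstream of each are shown because factors of this group are known to act on one another. Capitals mark matches on either strand to AGATAA (bound by GATA factors) or to CCGCCC (a GC box of the kind that KLF and SP factors bind). In *Klf4* the first pair of CCGCCC matches overlaps by a base.
Hnf4a, upstream start, chr2:163506607-163506856, plus strand: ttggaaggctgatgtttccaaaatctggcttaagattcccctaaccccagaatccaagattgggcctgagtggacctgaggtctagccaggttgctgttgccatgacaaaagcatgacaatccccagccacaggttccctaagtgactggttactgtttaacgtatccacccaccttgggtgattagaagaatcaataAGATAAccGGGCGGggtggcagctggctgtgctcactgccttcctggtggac
Hnf4a, downstream start, chr2:163546905-163547154, plus strand: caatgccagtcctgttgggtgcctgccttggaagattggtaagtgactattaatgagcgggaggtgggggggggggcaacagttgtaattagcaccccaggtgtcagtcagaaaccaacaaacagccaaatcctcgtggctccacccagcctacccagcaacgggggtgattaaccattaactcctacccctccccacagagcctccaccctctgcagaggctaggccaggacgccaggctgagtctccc
Klf4, chr4:55532476-55532725, minus strand: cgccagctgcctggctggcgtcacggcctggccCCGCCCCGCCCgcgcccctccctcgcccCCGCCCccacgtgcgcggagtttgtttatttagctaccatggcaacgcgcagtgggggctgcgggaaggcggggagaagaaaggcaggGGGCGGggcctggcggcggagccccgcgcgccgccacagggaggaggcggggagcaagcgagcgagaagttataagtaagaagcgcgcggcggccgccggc
Cdx2, chr5:147307250-147307499, minus strand: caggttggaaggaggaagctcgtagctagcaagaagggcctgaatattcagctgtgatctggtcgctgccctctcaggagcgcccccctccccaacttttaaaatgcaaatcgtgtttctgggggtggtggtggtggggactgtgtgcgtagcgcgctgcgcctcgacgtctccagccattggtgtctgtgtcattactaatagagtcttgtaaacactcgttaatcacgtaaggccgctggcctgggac
Pdx1, chr5:147269847-147270096, plus strand: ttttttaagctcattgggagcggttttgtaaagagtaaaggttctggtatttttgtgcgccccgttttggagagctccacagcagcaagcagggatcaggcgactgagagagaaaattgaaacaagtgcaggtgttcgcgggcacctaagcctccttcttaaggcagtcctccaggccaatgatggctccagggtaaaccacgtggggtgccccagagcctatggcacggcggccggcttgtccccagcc

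The upstream *Hnf4a* window held 1 match to AGATAA and 1 to CCGCCC, and the *Klf4* window held 4 to CCGCCC. Of all 32851 start sites in the table, 9.99% had AGATAA and 32.7% had CCGCCC within the same length. The *Klf4* window was 74% G and C, where the median of all starts was 52.4%. AAGGTCA, the half-site that ESRRA binds, was found in 0 of the 5 windows and in 4.08% of all starts. The letters CAAAGTCCA of an HNF4 site (0.384% of all starts), TTTATG of a CDX site (10.8%) and the HNF1 palindrome (0.00913%) were also in 0 of the 5. A match is a description of these letters and not a binding site.

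*Esrra* itself was at 49.4, 73.5 and 104 FPKM in WT replicates 1 to 3 and at 10.4, 9.42 and 8.72 FPKM in the *Esrra*-/- replicates. FPKM scales the fragments of a gene by transcript length and by sequencing depth, so levels of different genes can be set side by side. The summed FPKM of a library ranged from 707094 to 999902, and the number of reads is unknown from such values. Y-linked transcripts were above a trace in all libraries but WT replicate 3 and *Esrra*-/- replicate 3.

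*Hnf4a* had the highest mean level of the group. It was at 180.2, 194 and 166 FPKM in WT and at 178, 186 and 175 FPKM in *Esrra*-/-. The genotypes overlapped and their means were 180.0 ± 13.8 and 179.7 ± 5.9 FPKM (SD, n = 3 mice each). Its log2 fold change, *Esrra*-/- over WT, was -0.00 (95% interval -0.33 to 0.33, limma adjusted p = 1.000). *Hnf4g*, its paralog, was at 98.5, 179 and 120.2 FPKM in WT and at 126, 178 and 199 FPKM in *Esrra*-/-. WT replicate 2 was as high as *Esrra*-/- replicate 2, and the spread within each genotype was the widest among the tested factors, with a pooled SD of 0.39 on the log2 scale. The log2 fold change of *Hnf4g* was 0.36 (95% interval -0.27 to 0.99, limma adjusted p = 0.658). It ran from 0.17 without WT replicate 1 to 0.60 without WT replicate 2, and was 0.22 without *Esrra*-/- replicate 3 and 0.55 without *Esrra*-/- replicate 1.

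The summed level of the 11 immune cell markers was highest in WT replicate 2 and *Esrra*-/- replicates 2 and 3, the same libraries as for *Hnf4g*. It was 129, 210.1 and 119 FPKM in WT replicates 1 to 3 and 103, 187 and 244 FPKM in the *Esrra*-/- replicates. *Gzma* and *Gzmb*, granzymes of intraepithelial lymphocytes, made up most of this sum. The part of these cells in the spread of *Hnf4g* was not tested.

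*Cdx1* was at 52.2, 61.6 and 67.2 FPKM in WT and at 50.7, 50.1 and 50.3 FPKM in *Esrra*-/-. The *Esrra*-/- libraries lay close together and under the lowest WT library, replicate 1, by a narrow margin. The means were 60.4 ± 7.57 and 50.4 ± 0.346 FPKM (SD, n = 3 mice each). An exact permutation test, two-sided, gave p = 0.1, and 3 against 3 cannot go lower. *Cdx1* was the 1 tested factor whose genotypes did not overlap, whereas 17.6% of all genes tested did not overlap, 9.14% being lower and 8.45% higher in *Esrra*-/-. The log2 fold change was -0.25 (95% interval -0.57 to 0.07, limma adjusted p = 0.545). After quantile normalization it was -0.31, with an unadjusted limma p of 0.034. In the fit without that normalization, leaving out a library gave -0.35 to -0.17. *Cdx2* was at 54.1, 56.2 and 59.7 FPKM in WT and at 49.3, 57.3 and 59.4 FPKM in *Esrra*-/-, so the genotypes overlapped. Its log2 fold change was -0.04 (95% interval -0.35 to 0.27, limma adjusted p = 0.934).

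*Gata4* was at 72.7, 71.2 and 97.9 FPKM in WT and at 71.6, 80.8 and 88.4 FPKM in *Esrra*-/-. The log2 fold change was 0.00 (95% interval -0.40 to 0.41, limma adjusted p = 0.997). *Gata6* was at 42.9, 42.9 and 58.7 FPKM in WT and at 52.0, 43.3 and 58.2 FPKM in *Esrra*-/-, with a log2 fold change of 0.09 (95% interval -0.33 to 0.52, limma adjusted p = 0.878). For both GATA factors replicate 3 was the highest library of each genotype, and these are the libraries without Y-linked transcripts. They also had the largest summed FPKM of their genotype, 999902 in WT and 901171 in *Esrra*-/-. Their median deviation of the enterocyte genes was the highest of their genotype too, at 0.18 and 0.46 on the log2 scale. Each genotype held 1 library without Y-linked transcripts, so these were balanced between the groups. The part of any of these traits in the levels was not tested.

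*Klf4* was among the steadiest factors, at 105, 99.0 and 108 FPKM in WT and at 105, 119 and 108 FPKM in *Esrra*-/-. Its pooled SD within genotypes was 0.08 on the log2 scale, where the median of all genes tested was 0.23. The log2 fold change was 0.08 (95% interval -0.22 to 0.39, limma adjusted p = 0.845), and leaving out a library gave 0.03 to 0.12, lowest when *Esrra*-/- replicate 2 was dropped. *Klf5* was at 94.5, 127 and 108 FPKM in WT and at 109, 137 and 127 FPKM in *Esrra*-/-. The genotypes overlapped, and the log2 fold change was 0.18 (95% interval -0.22 to 0.58, limma adjusted p = 0.732). It was 0.08 without WT replicate 1 and 0.29 without WT replicate 2.

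*Pdx1* stood far below the other factors, at 1.17, 0.366 and 0.866 FPKM in WT and at 0.145, 0.146 and 1.31 FPKM in *Esrra*-/-. *Esrra*-/- replicate 3 was the highest library and the other two *Esrra*-/- libraries the lowest, so the genotypes overlapped (two-sided exact permutation test on log2 values, p = 0.4). With a mean that did not exceed 1 FPKM, *Pdx1* was the only factor left out of the fit. Without the filter on low values its log2 fold change was -0.92, with an interval from -2.72 to 0.88.

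**Figure D1:**
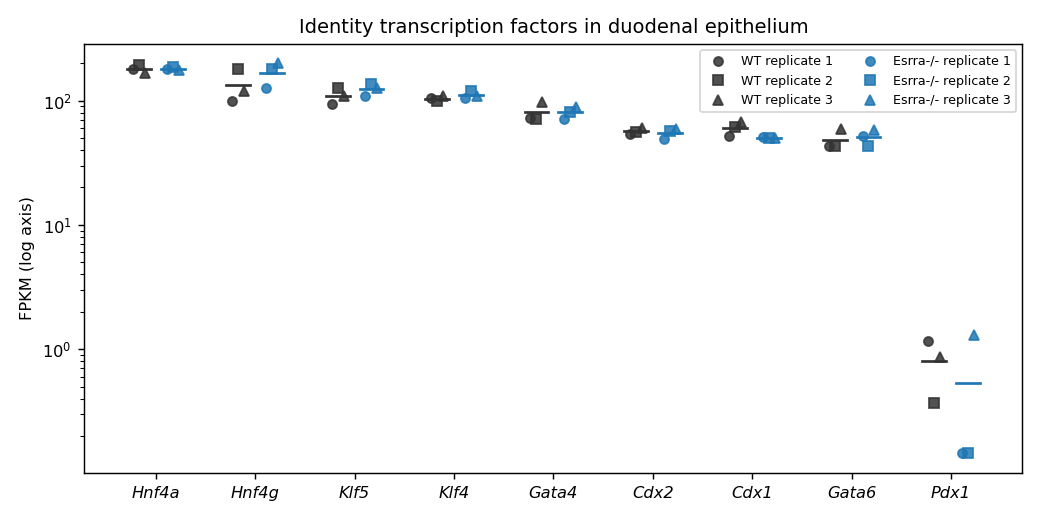
FPKM of the 9 factors in each library on a log axis, with WT in grey and *Esrra*-/- in blue, a symbol for each replicate number and a bar at the arithmetic mean of each genotype. All factors but *Pdx1* sat between 42.9 and 199 FPKM, and *Pdx1* reached at most 1.31 FPKM.

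Of the 8 factors tested, 0 passed an unadjusted p under 0.05, where 10.8% of the 10596 genes tested did, 6.49% being lower and 4.3% higher in *Esrra*-/-. The study's own rule adds to that p a size of more than 0.58 on the log2 scale. It was met by 0 of the 8 factors and by 4.63% of all genes tested, 3.28% lower and 1.35% higher. An adjusted p under 0.05 was reached by 0 of the 8 and by 0.0378% of all genes. The median size of the log2 fold change, regardless of sign, was 0.09 among the tested factors and 0.18 among all genes tested, and 5 factors had a positive value and 3 a negative one. A p that misses the threshold does not show that the levels were equal, so the intervals bound the difference. For 7 of the 8 factors the 95% interval lay inside a log2 fold change of 0.58 in either direction, as it did for 39.8% of all genes tested. The bounds of *Klf5* and *Cdx1* came closest to that limit, and *Hnf4g* was the exception. The median width of the interval was 0.73 for the factors and 0.87 for all genes.

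**Figure D2:**
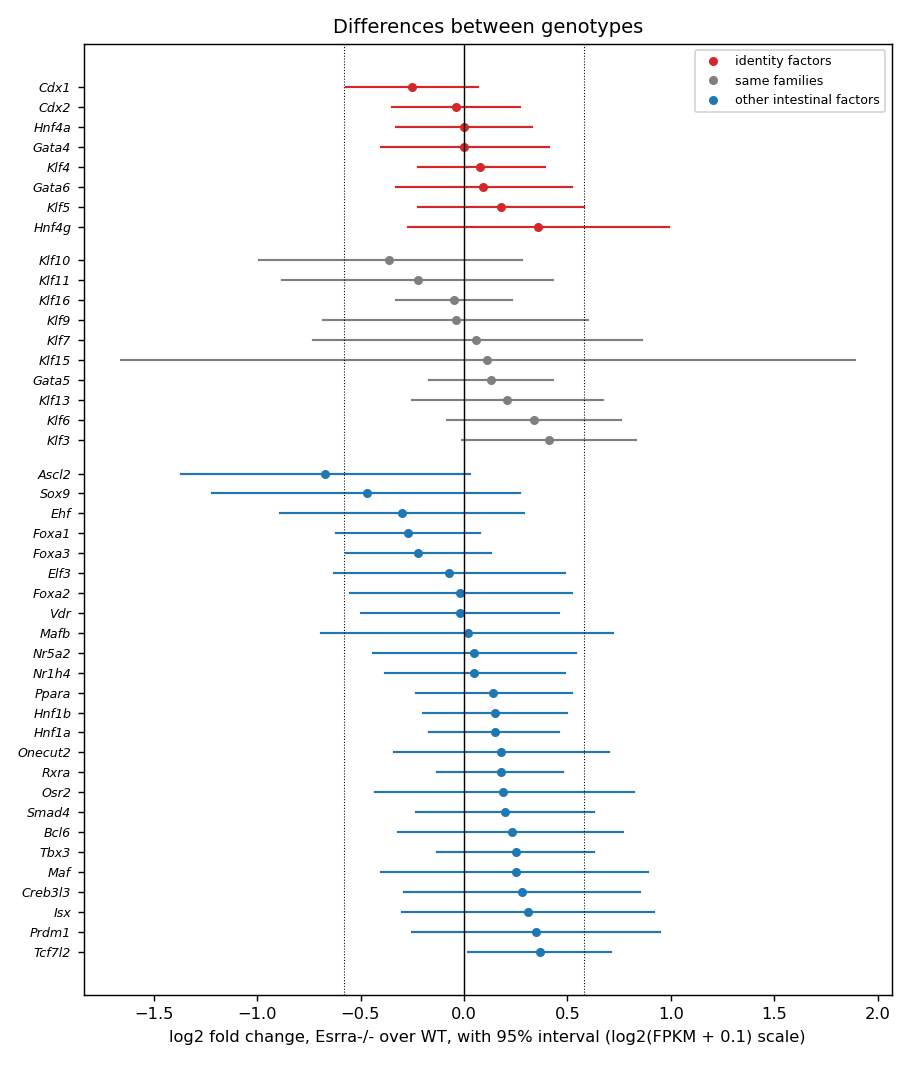
Log2 fold change, *Esrra*-/- over WT, on the log2(FPKM + 0.1) scale with its 95% interval from limma, for the tested identity factors (red), other genes of the same families (grey) and other intestinal transcription factors (blue). Dotted lines mark 0.58 in both directions, and among the red lines that of *Hnf4g* crosses one.

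By WT means the order was *Hnf4a* (180.0 FPKM), *Hnf4g* (133), *Klf5* (110.0), *Klf4* (104), *Gata4* (80.6), *Cdx1* (60.4), *Cdx2* (56.7), *Gata6* (48.2) and *Pdx1* (0.8). The least abundant tested factor had a higher mean than 92.6% of all genes in the table. Neighbours whose WT ranges did not overlap were *Klf4* over *Gata4*, *Gata4* over *Cdx1*, and *Gata6* over *Pdx1*. *Hnf4a* was above *Hnf4g* in 5 of 6 libraries, with overlapping WT ranges and the reverse order in *Esrra*-/- replicate 3. *Hnf4g* was above *Klf5* in 6 of 6 libraries although their WT ranges overlapped. *Cdx1* was above *Cdx2* in 3 of 6 libraries, and *Klf5* above *Klf4* in 4 of 6. *Gata6* exceeded *Pdx1* by 36.7 to 359.8 times within a library.

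Paralogs were next compared within each library, since such a ratio does not depend on how a library was scaled. The FPKM ratio of *Gata4* to *Gata6* was 1.70, 1.66 and 1.67 in the WT libraries, the closest agreement of the 4 pairs. In *Esrra*-/- it was 1.38, 1.87 and 1.52, on both sides of the WT values. The *Hnf4a* to *Hnf4g* ratio was 1.83, 1.08 and 1.38 in WT and 1.40, 1.04 and 0.879 in *Esrra*-/-. The *Cdx1* to *Cdx2* ratio was 0.966, 1.09 and 1.13 in WT and 1.03, 0.873 and 0.847 in *Esrra*-/-, so that *Cdx1* exceeded *Cdx2* in 2 WT libraries and 1 *Esrra*-/- library. The *Klf4* to *Klf5* ratio was 1.11, 0.777 and 1.00 in WT and 0.961, 0.863 and 0.848 in *Esrra*-/-. In each pair the genotypes overlapped.

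The mean log2 ratio differed, *Esrra*-/- minus WT, by -0.21 for *Cdx1*/*Cdx2* (exact permutation p = 0.2), -0.36 for *Hnf4a*/*Hnf4g* (exact permutation p = 0.3), -0.09 for *Gata4*/*Gata6* (exact permutation p = 0.7) and -0.10 for *Klf4*/*Klf5* (exact permutation p = 0.6). Adjusted over the 4 pairs, these two-sided exact permutation p-values were 0.6, 0.6, 0.7 and 0.7. A p under 0.1 was out of reach for 3 against 3.

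**Figure D3:**
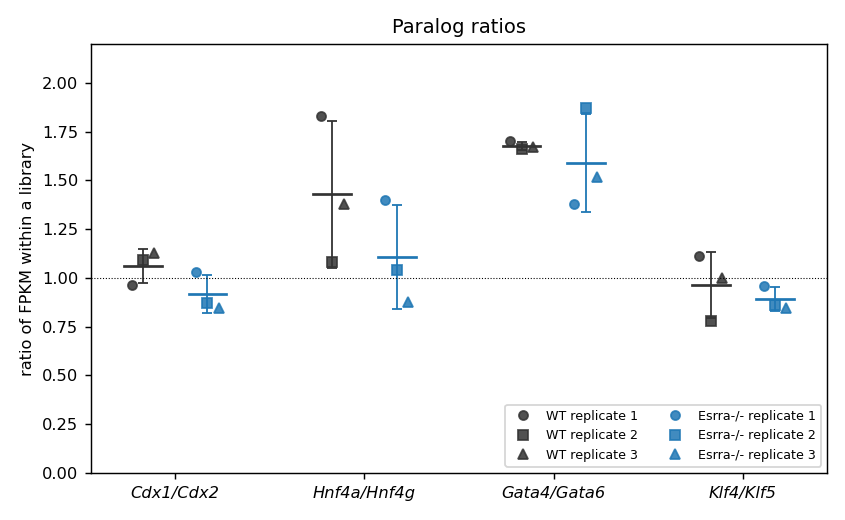
Ratio of FPKM between paralogs within each library for 4 pairs, with points per replicate, bars at the mean and whiskers of 1 SD (n = 3 per genotype), and a dotted line at a ratio of 1. The WT values of *Gata4*/*Gata6* sit between 1.66 and 1.70, and WT and *Esrra*-/- points overlap in every pair.

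The same families hold 22 other genes, of which 10 had a mean above 1 FPKM. *Gata5*, the third endodermal GATA factor and named after its values were seen, averaged 33.9 ± 3.31 FPKM in the WT mice and 37.1 ± 1.91 FPKM in those without ESRRA (SD, n = 3). *Gata1*, *Gata2* and *Gata3*, the factors of blood cells, stayed below 1 FPKM in all libraries. *Cdx4* and the ParaHox genes *Gsx1* and *Gsx2* were listed at 0 throughout. Of the 10 tested relatives, 0 passed an unadjusted p under 0.05, against 10.8% of all genes tested. Without WT replicate 2 the count was 1, *Klf3*. The 3 with the smallest p were *Klf3*, *Klf6* and *Klf10*. *Klf3*, a repressor that competes for KLF sites, was at 42.8, 45.5 and 30.3 FPKM in WT and at 50.1, 55.6 and 49.7 FPKM in *Esrra*-/-, without overlap (log2 fold change 0.41, 95% interval -0.01 to 0.83, limma adjusted p = 0.471). The log2 fold change was 0.23 without WT replicate 3 and 0.52 without WT replicate 2. *Klf6* had a log2 fold change of 0.34 (limma adjusted p = 0.536), which was 0.18 without *Esrra*-/- replicate 3. *Klf10*, an early TGF-beta response gene, was at 18.1, 9.02 and 8.89 FPKM in WT and at 9.07, 9.23 and 8.23 FPKM in *Esrra*-/-. Its log2 fold change of -0.36 (limma adjusted p = 0.667) rested on WT replicate 1 and was -0.02 without it.

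Among 25 other transcription factors of the intestinal epithelium, 1 passed an unadjusted p under 0.05, in the higher direction, where 4.3% of all genes tested did, and 0 an adjusted one. A share so near that of all genes is no result about the list. The gene was *Tcf7l2*, the nuclear partner of beta-catenin in Wnt signalling, at 13.3, 12.9 and 12.3 FPKM in WT and at 13.7, 19.0 and 17.5 FPKM in *Esrra*-/-. The genotypes did not overlap and the log2 fold change was 0.37 (95% interval 0.02 to 0.71, limma adjusted p = 0.433). Its unadjusted limma p was under 0.05 with all libraries but, of the 6 fits that left 1 library out, only in that without *Esrra*-/- replicate 1, and reached 0.129 without *Esrra*-/- replicate 2. *Creb3l3*, a regulator of lipid transport genes, and *Elf3*, an epithelial ETS factor, were the most abundant of this list, and their log2 fold changes of 0.28 and -0.07 did not pass the test. That of *Creb3l3* was 0.13 without WT replicate 2 and 0.51 without WT replicate 3, where its unadjusted limma p was 0.030. The list had a median log2 fold change of 0.15, against 0.03 over all genes tested and 0.04 over the identity factors. It was 0.06 without *Esrra*-/- replicate 2 or 3 and 0.08 without WT replicate 3. Without *Esrra*-/- replicate 2 the calls were 2 lower and 0 higher, and without WT replicate 3 they were 1 lower and 1 higher. Without WT replicate 1 or 2 there were 0.

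The genes that the factors are known to drive were then read in the same fit. Of 38 brush-border and absorptive genes of enterocytes, 0 passed an unadjusted p under 0.05 in either direction, against 10.8% of all genes tested. Among the 38, 33 had a positive and 5 a negative log2 fold change, and their median was 0.18, against 0.03 over all genes tested. Such genes also share the cell content of a library and are not independent counts. The median of the 38 was 0.03 without *Esrra*-/- replicate 3, 0.11 without WT replicate 2, 0.35 without WT replicate 3 and 0.41 without *Esrra*-/- replicate 2. The genotypes did not overlap for 2 of the 38, both higher in *Esrra*-/-, where 8.45% of all genes tested were, so their number is no result about the list. They were *Apob* and *Mttp*, which are needed to assemble chylomicrons. *Apob* was at 634, 585 and 672 FPKM in WT and at 853, 761 and 769 FPKM in *Esrra*-/- (log2 fold change 0.33, 95% interval -0.07 to 0.74, limma adjusted p = 0.533), and *Mttp* had a log2 fold change of 0.34 (limma adjusted p = 0.574). *Eps8* and *Cdhr5*, also among the genes with the smallest p, had log2 fold changes of 0.39 and 0.37.

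The disaccharidases *Lct* and *Sis*, known to respond to CDX2 and GATA4, had log2 fold changes of 0.09 and 0.13. For *Alpi*, intestinal alkaline phosphatase and a KLF4 target, the value was 0.29 (0.03 if *Esrra*-/- replicate 3 was dropped, 0.54 if *Esrra*-/- replicate 2 or WT replicate 3 was), and for *Vil1*, which encodes the actin bundler villin, it was 0.25. *Apoa4* and *Fabp1*, the most abundant genes of the list, had values of 0.42 and 0.14. All of these missed the test, and *Sis* ranged widely in both genotypes, from 459 to 766 FPKM in WT and from 451 to 1036 FPKM in *Esrra*-/-.

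Of the crypt genes tested, 15 of 16 cell division genes, 7 of 7 Paneth cell genes and 10 of 10 stem cell genes had negative log2 fold changes. The median over all genes tested was 0.03. Without *Esrra*-/- replicate 3, 8 of the 10 stem cell genes were negative. Genes of 1 cell type share the cell content of a library, so they are not independent counts. Of the 16 cell division genes, 10 were lower in *Esrra*-/- at an unadjusted p under 0.05, of 7 Paneth cell genes 5 were, and of 10 crypt stem cell genes 1 was, while 0 of these were higher and 6.49% of all genes tested were lower by that rule. None of them had an adjusted p under 0.05. The median log2 fold changes of these lists were -0.56, -1.48 and -0.57, and with a library left out they ran from -0.38 to -0.69, from -0.83 to -1.91 and from -0.29 to -0.92. The value nearest 0 came without *Esrra*-/- replicate 3 and the farthest without *Esrra*-/- replicate 2 in each list. The counts moved with single libraries (all libraries left out in turn, added after the data were seen). Of the cell division genes 5 were lower by that rule without *Esrra*-/- replicate 1, without *Esrra*-/- replicate 3 or without WT replicate 2. The count was 7 without WT replicate 1, 11 without WT replicate 3 and 15 without *Esrra*-/- replicate 2. In the fit without *Esrra*-/- replicate 3, 1 other cell division gene was higher by that rule. Of the Paneth genes 1 passed without *Esrra*-/- replicate 3, WT replicate 1 or WT replicate 2, 3 without *Esrra*-/- replicate 1, 6 without WT replicate 3 and 7 without *Esrra*-/- replicate 2. Of the stem cell genes 5 passed without *Esrra*-/- replicate 2, 2 without WT replicate 3 and 1 in each of the other fits. Their summed levels were 238 to 288 FPKM in WT and 157 to 225 FPKM in *Esrra*-/- for cell division, 10199 to 21094 and 2002 to 8842 FPKM for Paneth cells, and 153 to 274 and 62 to 203 FPKM for stem cells. *Esrra*-/- replicate 3 had the lowest sum in all of these lists. *Defa24* and *Lyz1* led the Paneth list, *Olfm4* and *Slc12a2* the stem cell list, and *Pcna* and *Birc5* the cell division list.

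*Smoc2*, the stem cell gene that passed and therefore named after its values were seen, was at 10.4, 12.7 and 10.1 FPKM in WT and at 6.88, 7 and 4.73 FPKM in *Esrra*-/-. With a library left out its log2 fold change ran from -0.94 to -0.66, and its unadjusted limma p was at most 0.010. *Cdx1*, whose product is most abundant in crypts, and the crypt factor *Klf5* had log2 fold changes of opposite sign. In *Esrra*-/- replicate 3, the library lowest in crypt genes, *Cdx1* was at 50.3 FPKM, within the narrow range of its genotype. *Klf5* was at 127 FPKM there, above its *Esrra*-/- lowest value of 109. The part of crypt content in the values of *Cdx1* was not tested.

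**Figure D4:**
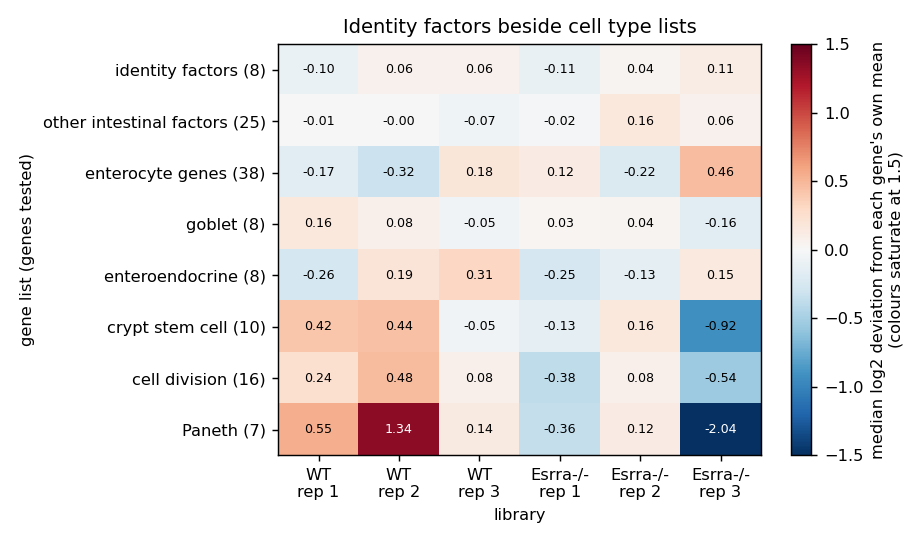
Median deviation of each gene list from each gene's own mean, on the log2(FPKM + 0.1) scale, in every library; the number of genes tested stands in brackets, red is above and blue below the mean. The identity factors stay between -0.11 and 0.11, while the Paneth list runs from 1.34 in WT replicate 2 to -2.04 in *Esrra*-/- replicate 3.

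Goblet cell markers had a median log2 fold change of -0.04 and enteroendocrine markers one of -0.11, led by *Zg16* and *Tff3* and by *Sst* and *Chgb*. The goblet median ran from -0.10 to 0.01 with a library left out. Tuft cell markers, led by *Sh2d6*, had a median of -0.03. Of the 8 goblet genes 1 was lower at an unadjusted p under 0.05, the mucus granule gene *Spink4* (named after its values were seen, log2 fold change -0.78). Of the 9 immune markers tested 1 was higher by that rule, *Itgam*, also named after its values were seen (log2 fold change 0.42). Over all genes tested 6.49% were lower and 4.3% higher, and single calls in lists of this size are near those shares. *Spink4* no longer passed without *Esrra*-/- replicate 1 or 3 or WT replicate 1 or 2, and *Itgam* without any 1 *Esrra*-/- library or WT replicate 3. Mesenchymal markers summed to 2.64 to 4.6 FPKM in WT and 2.71 to 8.03 FPKM in *Esrra*-/-, with 8 of 11 below 1 FPKM in all libraries and *Vim* and *Dcn* leading.

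The labelled tissue was checked against regional genes, because *Pdx1* is a defining factor of the duodenum. *Gip*, the hormone of proximal K cells and named after its values were seen, was at 96.2, 123 and 169.9 FPKM in WT and at 118, 89.1 and 117 FPKM in *Esrra*-/-. *Rbp2* and *Fabp1*, the leading genes of the proximal list, had WT means of 12573 and 12131 FPKM. The other proximal genes, named after their values were seen, fell on both sides. Mean levels over all libraries were 282 FPKM for *Lct*, 170.4 for the folate transporter *Slc46a1*, 61.2 and 55.7 for the hormones *Sct* and *Cck* and 15.3 for the iron importer *Slc11a2*. The calcium-binding *S100g* was at 3.91, 8.8 and 10.2 FPKM in WT and at 13.3, 4.66 and 60.4 FPKM in *Esrra*-/-, with replicate 3 far above the rest. Others were low. *Cybrd1*, the duodenal ferric reductase, stayed between 0.411 and 0.899 FPKM, and *Trpv6*, the apical calcium channel, was listed at 0 in every library. The iron exporter *Slc40a1* was at 2.46, 1.26 and 1.26 FPKM in WT and at 0.34, 0.361 and 1.52 FPKM in *Esrra*-/-. Its lowest libraries, *Esrra*-/- replicates 1 and 2, were also those with the least *Pdx1*.

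Markers of neighbouring organs were near 0. Of 14 stomach genes 12 stayed below 1 FPKM in all libraries, with *Gkn3* and *Pgc* the highest and *Muc5ac* and *Sox2* listed at 0. The sum of the 17 pancreatic genes was 5.08 to 6.11 FPKM in WT and 2.7 to 4.48 FPKM in *Esrra*-/-, led by *Bhlha15* and *Ctrl*. The defining acinar and beta cell genes *Cpa1*, *Ptf1a* and *Ins1* were listed at 0 in every library. Of 13 distal genes 6 stayed below 1 FPKM throughout, including the ileal bile acid transporter *Slc10a2*. The leading distal genes were *Ostb* and *Osta*, subunits of the basolateral bile acid exporter, with WT means of 316 and 166 FPKM. *Nts* and *Pyy* of the same list, named after their values were seen, had means of 41.6 and 8.56 FPKM over all libraries.

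**Figure D5:**
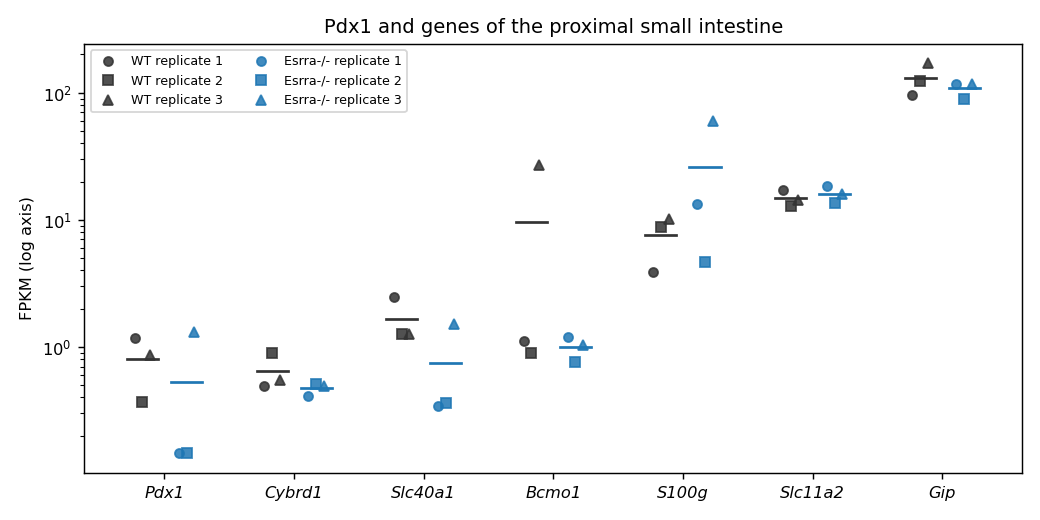
FPKM of *Pdx1* and 6 genes of the proximal small intestine in each library on a log axis, with WT in grey, *Esrra*-/- in blue and bars at the arithmetic mean. *Pdx1* and *Slc40a1* are lowest in *Esrra*-/- replicates 1 and 2, and *Bcmo1* is at 27 FPKM in WT replicate 3 against at most 1.2 FPKM elsewhere.

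For each tested factor the gene with the most similar pattern over the 6 libraries was sought among the other 10595 genes tested, by Pearson's r of log2(FPKM + 0.1). The highest of so many values is large by selection, so these are descriptions with no test. The pattern most like *Gata6* was that of *Nr1i3*, a nuclear receptor of xenobiotic response, at 31.5, 30.7 and 52.1 FPKM in WT and 43.0, 31.3 and 52.3 FPKM in *Esrra*-/-. A total of 611 genes had an r above 0.9 with *Gata6*, against 19 with *Klf4*. The closest gene was *8430410A17Rik* for *Cdx1*, *Usp21* for *Cdx2*, *1700008F21Rik* for *Hnf4a*, *Nab1* for *Hnf4g*, *Tnfrsf10b* for *Gata4*, *Acrbp* for *Klf4* and *Npc1* for *Klf5*.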

How the data were processed

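Total RNA of 3 WT and 3 *Esrra*-/- mice was sequenced, 1 library of duodenal epithelium each, and p-values measure the spread between these mice. Reads were checked with fastQC (v.0.11.3) and quantified by the authors with Kallisto (v2.1.0) against mm9, and DESeq2 (v.2.2.1) was used to calculate FPKM; versions are from the submitters' processing notes, and the annotation is not given in the sources used here. The authors deposited the FPKM values of 22611 genes and, in a second table that was not used, their own comparison of the genotypes with mean counts, fold changes and p-values. FPKM values carry no read number, so precision rests on the spread between mice.

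The values were transformed to log2(FPKM + 0.1), and the 10596 genes with a mean above 1 FPKM were fitted with limma (v3.58.1, lmFit and eBayes with trend, R 4.3.3) with no covariate and Benjamini-Hochberg adjustment over all genes tested. Fold changes on this scale understate the change of low genes. Paralog ratios and single genes were tested with two-sided exact permutation tests (scipy 1.17.1). The procedure was tested on simulated data. Gene positions are from GENCODE M1 on NCBIM37 (mm9), upstream sequences from RefSeq (GRCm38.p6). Of the listed symbols, *Bco1*, *Slc51a* and *Slc51b* were matched by older symbols (*Bcmo1*, *Osta*, *Ostb*), and *Prac1*, *Amy2b* and *Pla2g2a* were not matched.

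The factors, gene lists and tests were chosen with earlier results of these data known. The text names every identity factor, relatives and other factors with an unadjusted p under 0.05 or else the 3 smallest, the 5 smallest p and 7 preset genes of the enterocyte list, the 2 most abundant genes of each cell type or region list, and the closest pattern to each factor. Some genes that this rule picks are not reported here. Other genes are named as chosen after their values were seen, apart from those named as listed at 0 or below 1 FPKM, which were also picked after the values were known. Alternatives were a pseudocount of 1, other filters, quantile and median-ratio scaling, no trend, the replicate number as a block, Y-linked transcripts as a covariate and each library left out.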

Additional observations from a re-analysis of the deposited data

How the results depend on the processing

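The count of identity factors at an unadjusted p under 0.05 was 0 with each library left out in turn and under all other alternatives but quantile normalization, where it was 1. That factor was *Cdx1*, with a log2 fold change of -0.31, and 12.4% of all genes passed by the same rule there. With the study's thresholds the count stayed at 0 throughout. Without WT replicate 2, *Hnf4g* was at 0.60, past the size limit, with an unadjusted limma p of 0.050. *Cdx1*, *Hnf4g* and *Klf5* had unadjusted limma p-values of 0.063, 0.070 and 0.082 with the replicate block, where 21.6% of all genes passed. The log2 fold change of *Esrra* was -2.92 with the replicate block (limma adjusted p = 0.071, past the threshold in the fit without it), and with each library left out it ran from -3.19 to -2.66, its limma adjusted p missing 0.05 in all of these but those without WT replicate 1 and without *Esrra*-/- replicate 2. Near 0 the sign was not fixed. *Gata4* was at -0.04 under quantile normalization and, with a library left out, at -0.0036 to -0.08 in 4 fits and up to 0.15 in the others. Leaving out a library moved *Hnf4a* between -0.06 and 0.05, with positive values of 0.0016, 0.05, 0.01 and 0.02 in 4 fits, *Cdx2* between -0.09 and 0.04 (0.0001 without WT replicate 3) and *Gata6* between -0.0047 and 0.24. The *Gata4*/*Gata6* difference ran from -0.21 to 0.01, that of *Klf4*/*Klf5* from -0.24 to 0.01, that of *Hnf4a*/*Hnf4g* from -0.55 to -0.17 and that of *Cdx1*/*Cdx2* from -0.3 to -0.16. The cause of these changes was not tested. Same-numbered libraries had correlated deviations of 0.01, 0.26 and 0.38, and those of differently numbered libraries ran from -0.37 to 0.18. These values do not settle whether the numbers pair the mice. The numbers were not used in the main fit, and a block on them changed no call of an identity factor. With the replicate block 2285 genes had an unadjusted p under 0.05 against 1144 without, and 1973 with the Y-linked covariate, 747 without WT replicate 2 and 688 without *Esrra*-/- replicate 1. The median of the enterocyte genes stayed positive under all alternatives run, from 0.03 to 0.41. Genes at the level of *Pdx1* are too low here for a fold change to be read.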

Other observations

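*Bcmo1*, the enzyme that splits beta-carotene, was at 27 FPKM in WT replicate 3 and at 1.12, 0.892, 1.2, 0.754 and 1.03 FPKM in the other libraries. *Isx*, a homeobox gene and CDX2 target, was at 82.1, 57.1 and 56.4 FPKM in WT and at 62.1, 113 and 71.9 FPKM in *Esrra*-/-. *Cubn*, the vitamin B12 receptor, was also highest in WT replicate 3, at 120.2 FPKM against 3.72 to 18.0 FPKM elsewhere. *Fabp6*, the ileal bile acid binding protein, was at 4.69 FPKM in WT replicate 2 and at most 0.647 FPKM in the other libraries. These genes were chosen after their values were seen, and none of their differences between genotypes passed an unadjusted p under 0.05.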
